A study of Mus musculus with 9 samples.

Results

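Mitochondrial ribosomal proteins were examined in liver macrophages from mice labelled MAGL Mye-/- and from MAGL fl/fl controls after a toxic liver injury. The members were the rows of the deposited expression table whose gene symbol follows the Mrpl or Mrps naming scheme, a number and at most 1 further letter included, and which reached 10 normalized reads or more in 4 or more of the 9 libraries. This gave 77 genes of the 59445 features in the table, and the minimum left out no gene with such a name. The mitochondrial ribosome, or mitoribosome, is built in the mitochondrial matrix from ribosomal RNAs that the mitochondrial genome encodes and from proteins that nuclear genes encode and the cytosol supplies. It translates the few messenger RNAs of the mitochondrial genome, all of which specify subunits of the respiratory chain and ATP synthase. Its large subunit forms peptide bonds, its small subunit reads the message, and each holds both descendants of bacterial ribosomal proteins and proteins with no bacterial counterpart.

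RNA was sequenced from F4/80+ CD11b+ macrophages sorted by flow cytometry out of the non-parenchymal liver cells of male C57BL/6 mice. Every mouse of both groups had received 1 intraperitoneal dose of carbon tetrachloride (CCl4), a hepatotoxin, labelled as 0.6 mg/kg, and the cells were taken 24 h later, so that no uninjured liver enters the comparison. MAGL stands for monoacylglycerol lipase, encoded by Mgll, an enzyme that splits 2-arachidonoylglycerol and other monoacylglycerols into glycerol and free fatty acids. The MAGL fl/fl group, which the labels also call WT, held 4 mice aged 11 weeks (libraries S1, S3, S4 and S5). The MAGL Mye-/- group held 5 mice, of which S8 and S12 were 11 weeks old and S9, S10 and S11 were 10 weeks old. The labels name neither the Cre driver nor the cells in which it acts, and they do not say whether animals were pooled or whether libraries were made together. The p-values below therefore measure the spread between libraries that carry separate names. Values are given throughout in the order S1, S3, S4, S5 for fl/fl and S8, S9, S10, S11, S12 for Mye-/-.

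A few upstream sequences show what lies in front of these genes. RefSeq promoter windows (GRCm38.p6, 250 bases before to 50 bases after a start) were found for 68 of the 77 members, with 74 promoters. No entry was matched for Mrps28, Mrpl15, Mrpl13, Mrpl54, Mrps35, Mrpl38, Mrps34, Mrpl4 and Mrpl19. The windows were searched on both strands for the letters GCGCANGCG, which nuclear respiratory factor 1 (NRF1) is known to bind, CCGGAAG, the core bound by ETS factors such as GABP, and AAGATGGCG, bound by YY1. No 2 matches to different motifs overlapped in the members' windows. NRF1 letters lay in 16 of the 74 members' promoters (21.6%), against 6.25% of all 32851 mouse promoters in the table and 13.5% of those of genes tested here. ETS letters lay in 25 (33.8%), against 8.86% of all and 18.1% of those of tested genes, and YY1 letters in 8 (10.8%), against 1.4% and 3.16%. Below are stretches upstream of the annotated exons, written 5′ to 3′ on the gene's strand with motif matches in capitals. Mrps14 is shown because it had the smallest p among the members and has no match in its window, Mrps18a for its ETS match (its YY1 match lies after the start, outside the stretch shown), Mrpl12 for its NRF1 match (which reads as the motif on the opposite strand), and Mrpl43, picked after its values were seen, for a pair of ETS matches. They lie at chr1:160195065-160195214 (plus strand), chr17:46110854-46110985 (plus), chr11:120484487-120484612 (plus) and chr19:45006443-45006557 (minus).
Mrps14: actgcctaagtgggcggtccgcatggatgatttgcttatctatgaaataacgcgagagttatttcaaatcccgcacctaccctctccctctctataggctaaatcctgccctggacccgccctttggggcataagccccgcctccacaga
Mrps18a: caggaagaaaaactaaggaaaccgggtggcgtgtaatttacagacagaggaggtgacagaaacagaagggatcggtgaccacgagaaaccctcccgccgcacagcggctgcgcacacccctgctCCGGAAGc
Mrpl12: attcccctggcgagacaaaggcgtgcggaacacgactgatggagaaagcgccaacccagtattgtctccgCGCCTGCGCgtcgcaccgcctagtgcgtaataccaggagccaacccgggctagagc
Mrpl43: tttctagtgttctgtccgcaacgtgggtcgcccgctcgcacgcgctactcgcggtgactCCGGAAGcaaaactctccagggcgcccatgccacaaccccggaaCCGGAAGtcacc
A match describes letters only. Members with NRF1 letters had a median log2 fold change (Mye-/- minus fl/fl) of -0.18 (16 genes, 13 lower), against -0.21 for the 52 without (42 lower). The 25 members with ETS letters had a median of -0.21 and the 43 without also -0.21. The 8 members with YY1 letters had a median of -0.28 and the 60 without -0.20.

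Depth ran from 33383559 to 46489349 reads per library, and between 14240 and 16802 features held a read. The sorted cells carried macrophage RNA in quantity, with 39926 to 57469 normalized reads of the CSF1 receptor gene Csf1r in fl/fl and 44710.2 to 62578 in Mye-/-, and Lrat, which marks stellate cells, was at 0 in every library. The targeted gene gave no check of the labels. Mgll was near the floor of detection, with 16, 0, 122 and 26 reads in fl/fl and 30, 58, 7, 40 and 0 reads in Mye-/-, so genotype is used here as labelled.

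Transcripts of the mitoribosomal proteins were slightly lower in Mye-/- macrophages as a group, and no single member passed the test. The mean log2 level was lower in Mye-/- for 61 of the 77 members (79.2%) and higher for 16, against 45.4% lower over all 15288 features tested. The median log2 fold change of the members was -0.21 (quartiles -0.32 and -0.06, range -1.28 to 0.52), against 0.06 over all features. These fold changes are differences of mean log2(normalized reads + 1), Mye-/- minus fl/fl, and come with a standard error (SE) from limma. A median of -0.21 is about the size of the members' typical SE, whose median was 0.21. Well-measured genes give a nearer yardstick: among the 7198 features with a mean of at least 500 normalized reads, 50.2% were lower and the median was 0.00, and among the 10315 features within the members' own range of mean level 47.3% were lower and the median was 0.03. In RNA from sorted cells in bulk, fewer cells of a type and less RNA per cell cannot be told apart.

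No member passed an adjusted p of 0.05 with limma, and the smallest adjusted p was 0.218. Over all features limma called 3 (0.0196%), none of which was lower in Mye-/- (0.0%). The 77 members likewise gave 0 calls with edgeR's quasi-likelihood test (2 calls over all features, 0.0131%), 0 with DESeq2 (146 calls of 14656 features with an adjusted p, 0.996%) and 0 with limma-voom (8 calls, 0.0523%). At an unadjusted limma p under 0.05, 9 members were lower, where 4.13% of all features were lower at that p, and 1 was higher, where 6.38% were higher. In either direction, 10 of 77 members lay below an unadjusted p of 0.05 with limma (10.5% of all features), 10 with edgeR (8.02%) and 10 with DESeq2 (8.9%). For limma the members' share was 13.0%, against 14.9% of the 7198 features with a mean of at least 500 normalized reads. Among the 10315 features within the members' range of mean level it was 11.6%. The groups did not overlap for 1 member, Mrps36, which was lower, where 1.6% of all features had non-overlapping groups with Mye-/- lower. The members' difference was small for most genes and rested on no called gene.

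**Figure D1:**
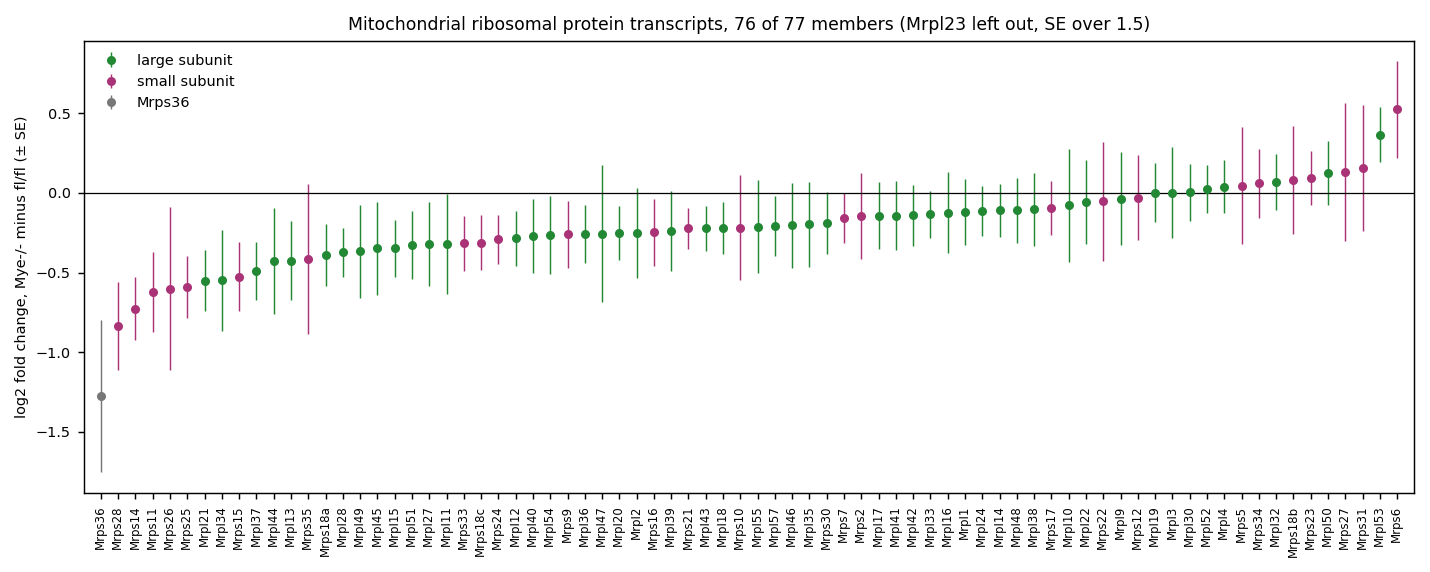
Log2 fold change (Mye-/- minus fl/fl, vertical axis, bars are ± 1 SE from limma) of 76 members, ordered from lowest to highest and coloured by ribosomal subunit. Most points sit below 0, from -1.28 for Mrps36 to 0.52 for Mrps6, and Mrpl23 is left out because its SE was 1.70.

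Summing the reads of the 77 members showed the size of the shift in each library. The sums were 137445, 141544, 124659 and 127120.0 normalized reads in fl/fl. They were 126241, 109519, 112491, 122335 and 105491 in Mye-/-. The fl/fl mean was 132692 ± 8094 (SD, n = 4) and the Mye-/- mean was 115215 ± 8756 (SD, n = 5), a difference of -13.2%. The groups overlapped, since S8 lay above S4. A score that gives each gene equal weight, the mean over members of the log2 level centred on the gene's own mean, ran 0.16, 0.20, 0.04 and 0.08 in fl/fl and 0.07, -0.17, -0.21, -0.04 and -0.12 in Mye-/- in the same order. S1 and S3 stood highest and S8 again lay among the controls. S3 held the highest value for 24 members and S1 for 20, whereas S9 and S12 held the highest for 0, and S10 held the lowest value for 20 members and S12 for 13. In the other direction, control S4 held the lowest value for 11 members and Mye-/- S8 the highest for 9.

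Members varied largely apart from each other. The median SD of a member's log2 level among libraries was 0.32 in fl/fl and 0.30 in Mye-/-. The median Pearson correlation between pairs of members over the 9 libraries was 0.17, and 0.08 once group means were removed, given as a description because the pairs share libraries.

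**Figure D2:**
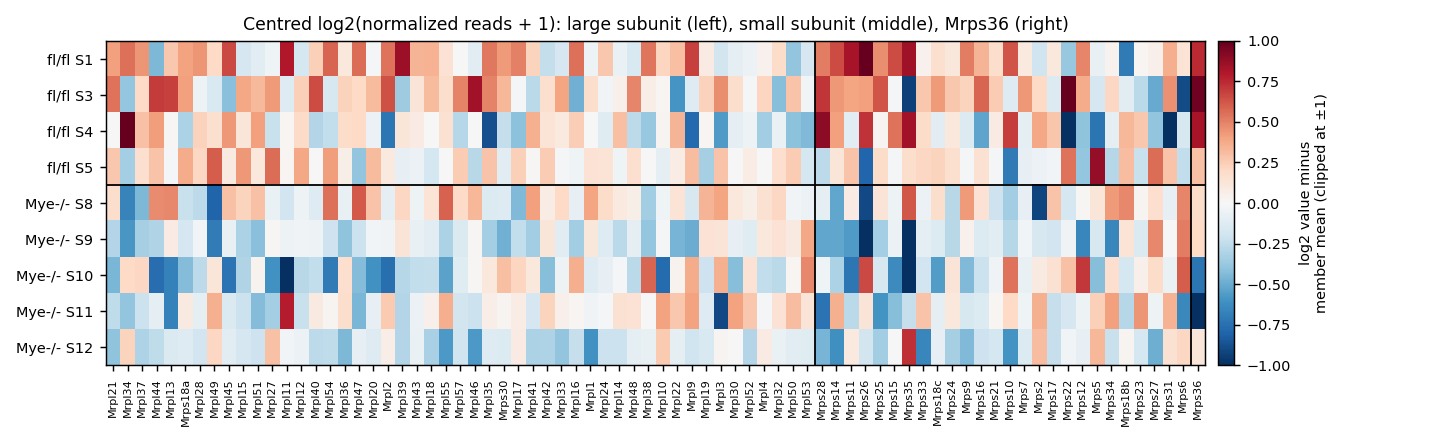
Each column is a member (76, without Mrpl23) and each row a library, with colour giving log2(normalized reads + 1) minus the member's own mean, clipped at ±1. The fl/fl rows above the line are redder for most members and the S9, S10 and S12 rows bluer, while S8 resembles the controls for many large subunit genes.

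Levels spanned a wide range. Mean normalized reads over the 9 libraries ran from 98.2 for Mrpl23 to 12203 for Mrpl33, with a median of 1384. Per kilobase of principal transcript, the scale on which genes can be compared, Mrpl33, a small protein of the large subunit, led with 26879 reads per kb in fl/fl and 24449 in Mye-/-. Mrps21, of the small subunit, followed at 10626 and 9097, then Mrpl52 at 6936 and 7127, and Mrpl20 at 5202 and 4421. The lowest on this scale were Mrps26 at 77.8 and 51.2, Mrpl47 at 86.1 and 73.0, and Mrps5 at 95.3 and 92.0. The length used for Mrps26, 4278 bases, exceeds the span of its row (chr2:130563738-130565393). Its level per kb is therefore too low and its place in this order uncertain. At the top of this order, none of the 4 leading members separated the groups. Mrpl33 held 10735, 15865, 12909 and 11883 normalized reads in fl/fl and 13892, 11155, 11669, 12526 and 9192 in Mye-/- (log2 fold change -0.13 ± 0.15, limma adjusted p = 0.785). Its highest library was S3 and its lowest S12, with wide overlap. Mrps21 and Mrpl20 had log2 fold changes of -0.22 ± 0.13 and -0.25 ± 0.17 (limma adjusted p = 0.556 and 0.631), and Mrpl52 one of 0.03 ± 0.15 (0.968), whose sign turned with age in the model.

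The small subunit held 26 members, of which 19 were lower in Mye-/- and 7 higher. Their log2 fold changes had a median of -0.22, and 5 were lower at an unadjusted limma p under 0.05 (background 4.13%). By descent, 14 of the 16 proteins with a bacterial homologue were lower (median -0.24), whereas the 9 specific to mitochondria split 5 lower and 4 higher (median -0.05). The difference between these classes was not tested. Summed over the 16 genes with a bacterial homologue, fl/fl libraries held 27155 to 32964 normalized reads and Mye-/- libraries 23364 to 25962, with no overlap. For the 9 mitochondria-specific genes the sums were 11151 to 12605 and 9017 to 12451, which overlapped. Over all 26 small subunit members they were 38830.3 to 45358.5 in fl/fl and 32811.8 to 38759.6 in Mye-/-, also with no overlap. For the 29 large subunit genes with a bacterial homologue they were 54592 to 62019 and 46532 to 57262, which overlapped.

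Mrps14, a bacterial-type protein of the small subunit head (chr1:160195215-160202170, plus strand), had the smallest p of the members. It held 3794, 3264, 3220.2 and 2629 normalized reads in fl/fl and 1686, 1691, 1940.5, 3101 and 1579 in Mye-/-. The Mye-/- libraries lay below the controls except S11, which lay within their range. Its means were 3227 ± 476 (SD, n = 4) in fl/fl and 1999.6 ± 629.8 (SD, n = 5) in Mye-/-, a log2 fold change of -0.73 ± 0.20 (SE) with a limma adjusted p of 0.218. No promoter letters were matched in its window, printed above.

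Mrps28 (chr3:8802146-8923858, minus strand), the mitochondrial counterpart of a bacterial small subunit protein, held 1069, 1235, 1393 and 625 normalized reads in fl/fl and 706, 524, 727, 449 and 543 in Mye-/-. Control S5 lay far below the other 3 controls and inside the Mye-/- range. The log2 fold change was -0.83 ± 0.27 (limma adjusted p = 0.317). Mrps25 (chr6:92169525-92184023, minus strand), a protein found only in mitochondrial ribosomes, held 2270.1, 2552, 1679 and 1873 normalized reads in fl/fl and 1802, 1302, 1473, 1088 and 1292 in Mye-/-. S8 reached above S4, and the remaining Mye-/- libraries lay below the controls. The log2 fold change was -0.59 ± 0.19 (limma adjusted p = 0.310), and its exons overlap those of Nr2c2 on the other strand.

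Mrps11 (chr7:78783131-78792988, plus strand) and Mrps15 (chr4:126046924-126055537, plus strand), both descended from bacterial small subunit proteins, followed. Mrps11 held 1604, 1189, 839 and 1103 normalized reads in fl/fl and 959, 611, 550.2, 751 and 969 in Mye-/-, with control S4 inside the Mye-/- range (log2 fold change -0.62 ± 0.25, limma adjusted p = 0.405). Mrps15 held 2066, 1306, 1920.4 and 1299 in fl/fl and 1268, 1265, 847, 979.5 and 1319.6 in Mye-/-, where S12 reached just above controls S3 and S5 (log2 fold change -0.53 ± 0.21, limma adjusted p = 0.405). Mrps11 lies head to head with Mrpl46, a large subunit gene, and their annotated exons overlap on opposite strands. Mrpl46 was at -0.20 ± 0.27.

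In the large subunit, 41 of 50 members were lower and 9 higher, with a median of -0.20, and 3 were lower and 1 higher at an unadjusted limma p under 0.05 (background 4.13% lower and 6.38% higher). Proteins with a bacterial homologue (29 genes, 23 lower, median -0.14) and those specific to mitochondria (20 genes, 17 lower, median -0.21) were not tested against each other. The second class counts Mrpl58, which the table lists under its older symbol Ict1 and which is not 1 of the 77. Mrpl55, Mrps18a and Mrps18b were placed in neither class.

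Mrpl37, specific to mitochondria (chr4:107055874-107066866, minus strand), held 2054, 1739.6, 1859 and 1699 normalized reads in fl/fl and 1111, 1203, 1747, 1309.6 and 1226 in Mye-/-. S10 lay among the controls and the other 4 Mye-/- libraries below them. The fl/fl mean of 1838 ± 159 (SD, n = 4) compares with 1319.6 ± 249 (SD, n = 5), a log2 fold change of -0.49 ± 0.18 (limma adjusted p = 0.351). Mrpl21 (chr19:3283042-3292837, plus strand), of bacterial descent, held 1956, 2137, 1471 and 1768 in fl/fl and 1660.0, 1200.2, 1071, 1229.5 and 1112 in Mye-/-. S8 stood above control S4 and apart from the other Mye-/- libraries, which lay below every control. Its log2 fold change was -0.55 ± 0.19 (limma adjusted p = 0.332).

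Mrpl28 (chr17:26123503-26126611, plus strand), also of bacterial descent, held 3315, 2349.7, 2863 and 2807 normalized reads in fl/fl and 2031, 2395, 2036, 2282 and 2139 in Mye-/-. Only S9 reached above the lowest control, S3 (log2 fold change -0.37 ± 0.15, limma adjusted p = 0.408). Mrpl15 (chr1:4773202-4785728, minus strand) held 1814, 2666, 2218 and 2744 in fl/fl and 2375, 1638, 1649.7, 1757 and 1817 in Mye-/-, with S8 high and S1 low for their groups (log2 fold change -0.35 ± 0.18, limma adjusted p = 0.504). Mrpl12 (chr11:120484636-120489065, plus strand), a protein of the stalk that recruits translation factors and also known as a partner of mitochondrial RNA polymerase, held 1517, 2017.8, 1959.7 and 2239 in fl/fl and 1659, 1677, 1413, 1473 and 1646 in Mye-/-. Control S1 lay within the Mye-/- range and the other 3 controls above it (log2 fold change -0.29 ± 0.17, limma adjusted p = 0.571).

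Grouped by place on the large subunit, a grouping made after the values were seen, the other stalk members Mrpl10 and Mrpl11 had log2 fold changes of -0.08 ± 0.35 and -0.32 ± 0.31. Around the exit tunnel, where the new chain leaves, Mrpl22 was at -0.06 ± 0.26, Mrpl24 at -0.11 ± 0.16, Mrpl47 at -0.25 ± 0.43 and Mrpl45, which tethers the ribosome to the inner membrane, at -0.35 ± 0.29. In the central protuberance, Mrpl38 was at -0.10 ± 0.23, Mrpl40 at -0.27 ± 0.23, Mrpl46 at -0.20 ± 0.27 and Mrpl48 at -0.11 ± 0.21. The values at these places overlapped within their SEs. Mrpl23, also at the exit tunnel, held 0, 252, 204 and 26.4 normalized reads in fl/fl and 186, 37.8, 0, 57.7 and 120.4 in Mye-/-. With an SE of 1.70, its difference between the groups was poorly measured, and the reason was not tested. The annotation holds 1 named pseudogene of Mrpl23.

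Mrps36 had the lowest fold change of all members. It carries a ribosomal name but is known as a component of the oxoglutarate dehydrogenase complex of the citric acid cycle, and structures of the mammalian mitoribosome lack it. At chr13:100735940-100744659 (minus strand), it held 775, 911, 821 and 567 normalized reads in fl/fl and 526, 530.2, 279, 74.8 and 504 in Mye-/-. Every Mye-/- library lay below every control, with S11 lowest. It averaged 769 ± 146 (SD, n = 4) in fl/fl against 383 ± 202 (SD, n = 5) in Mye-/-, for a log2 fold change of -1.28 ± 0.48 (limma adjusted p = 0.356). Leaving out 1 library at a time moved it between -1.47 and -0.77, the latter without S11. The annotation holds 3 named pseudogenes of Mrps36, and how reads were shared with them is not stated in the labels or headers.

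The 3 paralogues of bacterial protein S18 lay at different levels. Mrps18a, which sits in the large subunit despite its name (chr17:46110995-46128910, plus strand), held 2135, 2138, 1296 and 2084 normalized reads in fl/fl and 1381, 1436, 1194, 1713 and 1475 in Mye-/-. Control S4 lay within the Mye-/- range, and the other 3 controls above it (log2 fold change -0.39 ± 0.19, limma adjusted p = 0.491). Mrps18c, at the S18 site of the small subunit, held 2915, 3488, 2404 and 3039 in fl/fl and 2944, 2363, 1768, 2439.8 and 2459.8 in Mye-/- (-0.31 ± 0.17, limma adjusted p = 0.536), with the groups overlapping. Mrps18b held 260.0, 392, 534 and 524 in fl/fl and 594, 467, 376, 347 and 431 in Mye-/- (0.08 ± 0.34, limma adjusted p = 0.954), and its sign turned without S1 or without S8. Per kb of transcript Mrps18c was highest (4642 in fl/fl, 3754 in Mye-/-), then Mrps18a (2165 and 1629), then Mrps18b (396 and 410.4).

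Among the 16 members that were higher, those with the smallest p were Mrpl53, Mrps6, Mrpl50 and Mrps23. Mrpl53, a large subunit protein specific to mitochondria (chr6:83101516-83109937, plus strand), held 1965, 2172, 1628 and 1956 normalized reads in fl/fl and 2124, 2887, 3085, 2414 and 2033 in Mye-/-. S9, S10 and S11 lay above every control and S8 and S12 within their range (log2 fold change 0.37 ± 0.17, limma adjusted p = 0.470). Its row in the table is shared with Ccdc142. Mrps6 (chr16:92058318-92112226, plus strand), of bacterial descent, shares its row with Slc5a3, an inositol transporter gene. That row held 759, 370.1, 618 and 581 in fl/fl and 967, 984, 1051, 440.1 and 795 in Mye-/-, with S11 low and the other 4 Mye-/- libraries above the controls (log2 fold change 0.52 ± 0.30, limma adjusted p = 0.557). The third shared row, of Mrps34 and Nme3, was at 0.06 ± 0.22. For these rows the reads of the pair cannot be told apart, and without them 61 of 74 members were lower, with a median of -0.22. Mrpl50 (log2 fold change 0.12 ± 0.20, limma adjusted p = 0.863) and Mrps23 (0.09 ± 0.17, limma adjusted p = 0.880) had overlapping groups, and both turned sign with age in the model.

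**Figure D3:**
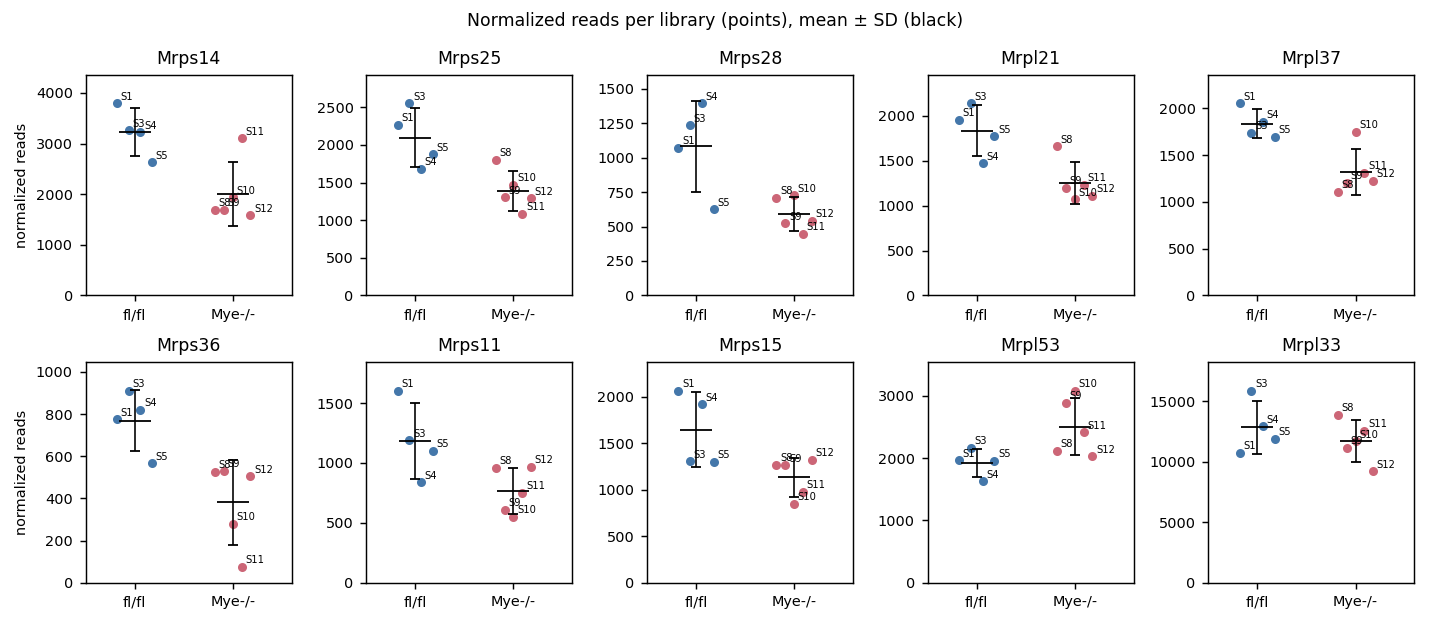
Normalized reads per library (points, labelled by library) with mean ± SD for 10 members, each on its own linear axis from 0. Mrps36 is the member whose groups do not overlap. S11 lies high for Mrps14, S8 for Mrpl21 and S10 for Mrpl37, and Mrpl53 is higher in Mye-/-.

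Beyond the Mrp names, the mitoribosome holds 5 further proteins of the list used here, and each was lower in Mye-/- (median log2 fold change -0.13). Gadd45gip1, a large subunit protein, held 986, 1194, 894 and 993 normalized reads in fl/fl and 883, 679.7, 587, 656 and 739 in Mye-/-. Each Mye-/- library lay below each control, though S8 came close (log2 fold change -0.53 ± 0.22, limma adjusted p = 0.434). Such a separation, with Mye-/- lower, held for 1.6% of all features. Dap3, a GTP-binding protein of the small subunit, held 3391, 2567, 2304 and 2167 in fl/fl and 1674, 2236, 2079, 2023 and 1729.5 in Mye-/- (-0.41 ± 0.17, limma adjusted p = 0.428), with S9 within the control range. Ptcd3, a small subunit protein with RNA-binding repeats, was at -0.13 ± 0.20 (limma adjusted p = 0.847) and turned sign without S3, where it was highest. Chchd1 was at -0.10 ± 0.22 and Aurkaip1 at -0.06 ± 0.19, with overlapping groups.

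The rest of the mitochondrial translation machinery split about evenly, and none of its listed genes passed limma's adjusted threshold. Of 25 assembly factors, 10 were lower and 15 higher (median 0.01). Here Ddx28, a helicase that helps assemble the large subunit, was at -0.52 ± 0.19 (limma adjusted p = 0.337) and Nsun4, an rRNA methyltransferase with a role in subunit joining, at 1.05 ± 0.41 (0.384), while Mettl17 was at -0.38 ± 0.23. Of 12 translation factors, 7 were lower and 5 higher (median -0.02), with the initiator formylase Mtfmt at 0.68 ± 0.40 and the elongation factors Gfm1 and Tsfm at -0.39 ± 0.23 and -0.58 ± 0.61. Of 19 measured enzymes that charge mitochondrial tRNAs, 9 were lower and 10 higher (median 0.01). Wars2, with under 230 normalized reads in each library, was at 2.85 ± 1.36. Qrsl1, a subunit of the glutamine amidotransferase, was at -0.61 ± 0.36 with non-overlapping groups, Mye-/- being lower, as for 1.6% of all features. The difference between these lists and the members was not tested.

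Genes that express or maintain mitochondrial DNA split 8 lower and 6 higher (median -0.02). Lrpprc, which stabilises mitochondrial messenger RNAs, held 3588, 2939.5, 2515 and 2126 normalized reads in fl/fl and 1492, 1865, 2571, 1716 and 1678 in Mye-/-. S10 lay within the control range and the other 4 Mye-/- libraries below it (log2 fold change -0.58 ± 0.19, limma adjusted p = 0.317). The mitochondrial DNA polymerase gene Polg was at 0.36 ± 0.16 and the RNA polymerase gene Polrmt at 0.51 ± 0.27. Of 8 measured nuclear regulators of mitochondrial genes, 4 were lower and 4 higher, including Pprc1, a PGC-1 related coactivator, at 0.41 ± 0.17 (limma adjusted p = 0.428), Myc at 0.63 ± 0.33, and Gabpa, the DNA-binding subunit of GABP, at 0.20 ± 0.20. The small ribosomal RNA of the mitoribosome itself, mt-Rnr1, held 41118 ± 12438 normalized reads (SD, n = 4) in fl/fl and 36725 ± 8118 (SD, n = 5) in Mye-/- (-0.15 ± 0.19, limma adjusted p = 0.821). The table has 1 feature spanning mt-Rnr2 and mt-Nd1, at -0.05 ± 0.25. Reads from the mitochondrial chromosome took 3.49% to 9.45% of a library and were highest in S3.

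**Figure D4:**
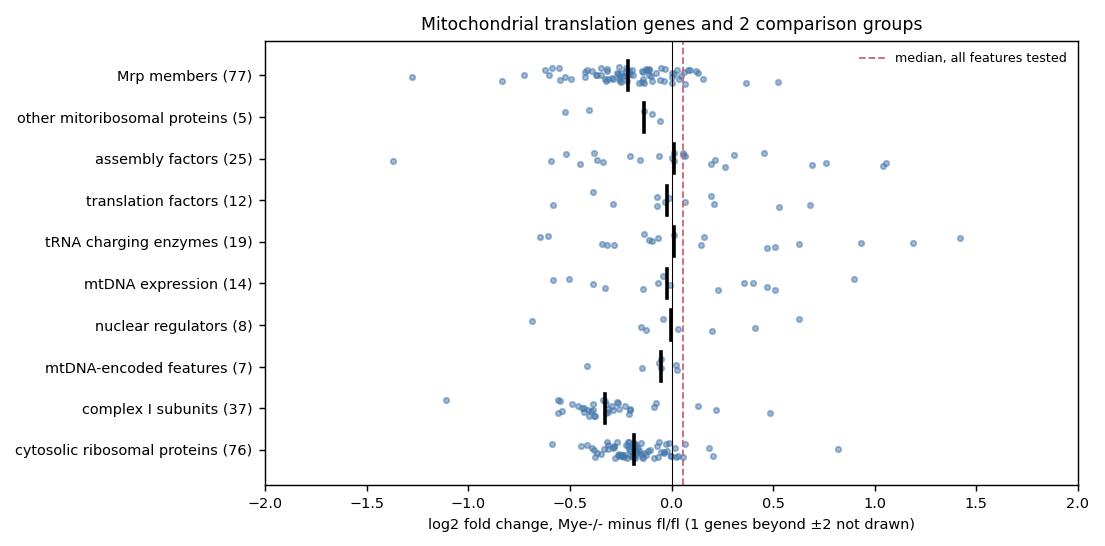
Log2 fold change (Mye-/- minus fl/fl) of each gene (points) in the members and in companion lists, with the list's median as a black bar and the median over all features tested (0.06) as a dashed line. Members, complex I and cytosolic ribosomal proteins lie to the left of 0, and the assembly, translation factor and tRNA charging lists straddle it. Wars2, at 2.85, is beyond the axis.

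Complex I and the cytosolic ribosome, taken for comparison, also leaned lower. The complex I list was taken by Nduf gene names alone, so a name need not mean a place in the complex. Of its 37 nuclear genes, 34 were lower and 3 higher (median -0.32). At an unadjusted limma p under 0.05, 16 were lower, where 4.13% of all features were. For 3 (Ndufb7, Ndufs6 and Ndufb9) the groups did not overlap, with Mye-/- lower, where this held for 1.6% of all features. Ndufb7 was at -0.55 ± 0.15, Ndufs6 at -0.56 ± 0.15 and Ndufs5, whose groups overlapped, at -1.11 ± 0.34 (limma adjusted p = 0.218, 0.218 and 0.273). Of 76 cytosolic ribosomal proteins, 68 were lower and 8 higher (median -0.18), with 11 lower at that p and 5 with non-overlapping groups, among them Rplp2 (-0.45 ± 0.13) and Rpl8 (-0.39 ± 0.14). DESeq2 called Ndufb7 (adjusted p = 0.0458), Rpl21 (0.0324) and Rplp2 (0.0424) lower, and limma called none of either list. The share that DESeq2 called over all features, in either direction, was 0.996%. Summed reads were 21.1% lower for complex I (142954 to 167665 in fl/fl, 108339 to 141089 in Mye-/-, with no overlap) and 11.5% lower for cytosolic ribosomal proteins, where the groups overlapped.

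Transcript length moved with the direction of change over the whole table, in a comparison chosen after the values were seen. The members' principal transcripts had a median of 1288 bases, those of complex I 908 and those of cytosolic ribosomal proteins 887, against 2973 for features tested, whereas assembly factors had 1858 and translation factors 2606. A length was at hand for 91.5% of the tested features that carry a symbol. Among features up to 1500 bases, 67.1% of 1598 non-members were lower (median log2 fold change -0.17), beside 80.9% of the 47 members of that length (median -0.22). Between 1500 and 3000 bases the shares were 53.2% of 3662 non-members (median -0.03) and 76.9% of 13 members (median -0.16). Above 3000 bases they were 36.5% of 5181 non-members (median 0.13) and 76.5% of 17 members (median -0.19). Lengths are those of the longest principal transcript. For Mrps26 (4278 bases), Mrpl51 (3427) and Mrps17 (5061), all above 3000 bases, that length exceeds the span of the row counted. The same holds for Mrpl57 (2877) and Mrps16 (2572) in the middle range. The members above 1500 bases may therefore include genes whose counted transcripts are shorter. The part of length in the members' shift was not tested. Among features with a mean of at least 500 normalized reads, the shortest range held 45 members, of which 84.4% were lower (median -0.22), beside 78.4% of 982 non-members (median -0.20). There the members and other genes of like length and level lay close together. In the middle range at that level, 9 of 10 members and 57.9% of 2159 non-members were lower, and above 3000 bases 76.9% of 13 and 35.4% of 3172.

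**Figure D5:**
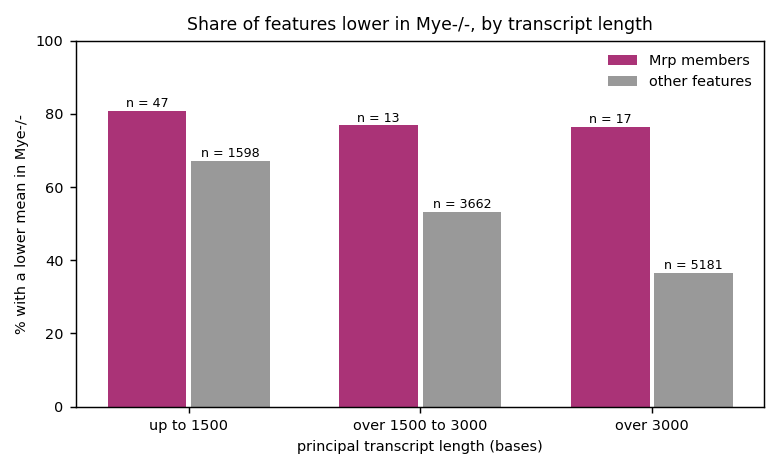
Share of features with a lower mean log2 level in Mye-/- (percent, from 0) for members and for other features with a symbol, in 3 ranges of principal transcript length, with the number of features above each bar. Among other features the share falls from 67.1% to 36.5% as transcripts lengthen, and among members it is 80.9%, 76.9% and 76.5%. Length is that of the longest principal transcript, which for some members exceeds the span of the row counted.

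Markers of other cell types had different ranges in the groups, and their part in the members' values was not tested. Summed hepatocyte markers (9 of 10 tested, each with a higher mean log2 level in Mye-/-) ran from 608 to 1990.2 normalized reads in fl/fl and from 1375 to 12205 in Mye-/-, highest in S10. Kupffer cell markers (4 of 5 tested, each higher) ran from 7.16 to 464 and from 205 to 1821. Neutrophil markers (3 of 8 tested, each lower) ran from 24385 to 44914 and from 11978 to 33724, and erythroid markers (5 of 6 tested, each lower) from 5525 to 35096 and from 2344 to 6567. Endothelial markers ran from 312 to 1074 and from 427 to 659, T and NK cell markers from 0 to 203 and from 18.8 to 334, and no B cell or stellate marker reached the minimum for testing. Of 7 macrophage identity genes, 6 had a higher and 1 a lower mean log2 level in Mye-/-. Their summed reads differed by -25.3% (Mye-/- against fl/fl), at 374922 to 587765 in fl/fl and 320610 to 386461 in Mye-/-, which overlapped. The 1 lower gene, Lyz2 (lysozyme 2), named here after its values were seen, was the most abundant of the 7, at 221530 to 422118 in fl/fl and 143570 to 204782 in Mye-/-, with no overlap. Its log2 fold change was -0.84 (SE 0.21, limma adjusted p = 0.218), and DESeq2 (adjusted p = 8.1e-05) and limma-voom called it.

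Overlapping genes touched 30 of the 77 members, whose exons share at least 50 bases with another gene. Of these, 23 were lower (median -0.20), and of the 47 without such overlap 38 were lower (median -0.22). Age was partly tied to genotype. Among the 11-week-old mice alone (4 fl/fl, and S8 and S12), 61 of 77 members were lower, with a median of -0.16, where 44.7% of all features were lower (median 0.07). Of these 61, 57 were among the 61 lower in all 9 libraries. At an unadjusted limma p under 0.05 lay 4 members (5.19%), where 3.31% of all features did, and with age as a covariate 4 members, where 4.71% did. Without fl/fl S1 and S3, which hold the fewest reads and stood apart in earlier results of these data, 53 were lower (48.2% of all features), 48 of them shared with the 61, and the median was -0.13 (0.02 over all features). Below that p lay 6 members (7.79%), where 8.94% of all features did.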

How the data were processed

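The deposited table holds signal values that the authors made by dividing read counts by 1 size factor per library with DESeq. This is stated in the submitters' processing notes and, per the file headers, holds for every column, with no log and no correction for gene length. The notes also list FastQC, Picard, SAMtools, STAR 2.4.0 and the genome build mm10. The file headers name FAST DB gene models. Not given in the sources used here are the counter, its strand setting and the handling of duplicate or shared reads. Whole reads were recovered as multiples of each column's smallest value (100% of nonzero values within 0.01 reads).

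Tests used limma 3.58.1 under R 4.3.3 on log2(normalized reads + 1), with limma's trend option, comparing 5 Mye-/- with 4 fl/fl libraries, two-sided. The fit took the 15288 features that reached 10 normalized reads in 4 or more libraries, with Benjamini-Hochberg adjustment over them and a threshold of 0.05. The pseudocount of 1 shrinks fold changes of low genes. On the recovered reads, edgeR 4.0.16 (quasi-likelihood) called 2 features, DESeq2 1.42.0 called 146 and limma-voom 8, as alternatives. The members and lists were chosen with earlier results of these data known. Named genes were the 12 members with the smallest p, members with non-overlapping groups, the 4 higher members with the smallest p, the 4 with the highest level per kb, those with particular roles, mitoribosomal proteins without an Mrp name, and up to 3 genes of each companion list. Exon overlap and the length of each gene's longest principal transcript came from GENCODE M21 (GRCm38), and promoters from RefSeq. The NRF1 and YY1 letters were shortened by 1 base after the longer forms had been searched. The fit was tested on simulated data.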

Additional observations from a re-analysis of the deposited data

Results flagged for a closer look

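A library stood far from the rest of its group, by Dixon's 95% criterion, in 6 of the 98 groups examined, where chance gives about 1 in 20. In Mye-/-, S11 was high for Mrps14 (3101 normalized reads) and for the complex I gene Ndufs5 (593), and S8 was high for Mrpl21 (1660.0) and Mrpl15 (2375). In fl/fl, S4 was low for Mrps18a (1296) and S3 was high for Ptcd3 (2938).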

How the results depend on the processing

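The count of members past the adjusted threshold was 0 under each of the 25 alternatives. The number of members lower in Mye-/- ran from 53 without fl/fl S1 and S3 to 67 without S11, and their median log2 fold change from -0.13 without S1 and S3 to -0.25 without S8. Members at an unadjusted p under 0.05 numbered 4 with age as a covariate (5.19%, beside 4.71% of all features), 4 in 11-week-old mice only (beside 3.31%) and 6 without S1 and S3 (7.79%, beside 8.94%), against 10 (13.0%, beside 10.5%), and 8 to 13 when libraries were left out singly. The count over all features moved from 3 to 17 with a pseudocount of 8 or of 50, 12 with a mean of at least 500 (fewer genes tested), 6 with TMM scaling, 8 with quantile normalization, 21 with no intensity trend, 9 with robust limma, 5 with array weights, 0 with age as a covariate, 0 in 11-week-old mice only, 146 with DESeq2, 8 with limma-voom, 9 without S1 and S3, and 0 to 20 when libraries were left out singly (0 without S8 or without S10, 20 without S5). The cause was not tested.

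Of 1193 values of named genes under alternatives, 1166 kept their direction and side of the threshold, 3 passed it with DESeq2 and 24 changed sign, none of them called. With age as a covariate, and equally in 11-week-old mice only, log2 fold changes turned to 0.15 for Chchd1, 0.0824 for Tsfm, -0.10 for Mrpl52, -0.0234 for Mrps23 and -0.000690 for Mrpl50. With array weights Mrpl52 turned to -0.0117 and Mrps18b to -0.0113. Without S1 and S3, Aurkaip1 turned to 0.0869, Ptcd3 to 0.15 and Mrps18b to -0.28. With libraries left out singly the ranges were -0.17 to 0.13 for Aurkaip1, -0.26 to 0.0717 for Chchd1, -0.0378 to 0.10 for Mrpl52, -0.14 to 0.21 for Mrps18b, -0.00970 to 0.20 for Mrps23 and -0.24 to 0.0893 for Ptcd3. Medians of the companion lists kept within their spread in 367 of 375 cases. No paired analysis was run, because the labels give no pairing of mice between the groups. Reads without molecular identifiers are not independent molecules, so low members such as Mrpl23 are less certain than their counts.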
